A study of Mus musculus with 18 samples.

Results

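The interleukin-1 (IL-1) family is described here through 10 genes, taken by symbol from tables of 21441 genes each: the ligands Il1a, Il1b, Il1f6, Il1f9, Il18 and Il33, the receptor antagonist Il1rn, and the receptor chains Il1r1, Il1r2 and Il1rap. All 10 are in both tables. RNA was sequenced from 18 libraries, 9 of macrophages and 9 of mouse liver, with 3 libraries per treatment. The macrophages were RAW264.7, an established mouse macrophage line. They were left as Control or received lipopolysaccharide (LPS), a component of the bacterial outer membrane, or LPS with 10 µM moringa isothiocyanate-1 (MIC-1), a compound from Moringa oleifera seed. The sample labels call these cells wild-type C57BL/6 macrophages and repeat the mouse doses for them, and no exposure time or LPS concentration for the sequenced cultures was found. The livers came from wild-type male C57BL/6 mice. Control mice received vehicle and saline, LPS mice received 10 mg/kg LPS into the peritoneum, and LPS+MIC-1 mice were gavaged for 3 days with 80 mg/kg MIC-1 in 10% DMSO before the same injection. Livers were taken 16 h after it. The protocol had 6 mice per group, and 3 liver libraries per group were sequenced. The paper states that the sequenced liver tissue came from 9 mice, 3 per group. Nothing found says which cultures the 3 macrophage libraries of a group came from. P-values measure only the spread between the libraries of a table, which in the macrophages may be technical.

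IL-1α and IL-1β, the products of Il1a and Il1b, bind the receptor chain Il1r1, which signals once the accessory chain Il1rap has joined it through Myd88 and the Irak kinases to NF-κB. Il1rn encodes the natural antagonist, which occupies Il1r1 without signalling, and Il1r2 is a decoy receptor that binds ligand but has no signalling domain. Il1f6 and Il1f9 are older names of the interleukin-36 genes Il36a and Il36g, whose products signal through Il1rl2 with Il1rap, while IL-33 uses Il1rl1 with Il1rap and IL-18 has its own receptor pair. In liver, resident macrophages (Kupffer cells) are a known source of IL-1β, and hepatocytes answer IL-1 with acute phase proteins.

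Of the 10 genes, 5 lie on mouse chromosome 2 (build mm9, the build of the deposited values). Il1f9 is at chr2:24041996-24049088, Il1f6 at chr2:24070938-24081222 and Il1rn at chr2:24192373-24207014, all on the plus strand, and Il1a (chr2:129125346-129135708) and Il1b (chr2:129190306-129196875) are neighbours on the minus strand. The receptor genes Il1r2 (chr1:40141613-40182064) and Il1r1 (chr1:40281925-40373043) are neighbours on chromosome 1. The others are Il18 (chr9:50383378-50389942), Il33 (chr19:29999604-30035194) and Il1rap (chr16:26581790-26730203). FPKM values were summed over the transcripts of a gene, so splice forms such as soluble and membrane Il1rap were not separated here.

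The 250 bases upstream of the annotated start are shown for Il1a and Il1b, whose levels moved together in the macrophages, for Il1f9, which did not follow them, and for Il1rn at its most upstream start. They are RefSeq sequence of build GRCm38.p6, 5′ to 3′ on the strand of the gene, from chr2:129309973-129310222 (minus), chr2:129371140-129371389 (minus), chr2:24186226-24186475 (plus) and chr2:24336610-24336859 (plus) in that order. Capitals mark matches, on either strand, to a TATA box (TATAAA), an AP-1 site (TGANTCA) or an NF-κB site (GGG, any 3 bases, then TTCC).
Il1a: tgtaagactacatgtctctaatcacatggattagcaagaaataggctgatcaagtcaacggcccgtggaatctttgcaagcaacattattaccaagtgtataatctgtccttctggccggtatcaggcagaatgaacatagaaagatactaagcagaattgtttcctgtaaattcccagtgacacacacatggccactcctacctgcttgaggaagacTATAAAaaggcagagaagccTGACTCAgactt
Il1b: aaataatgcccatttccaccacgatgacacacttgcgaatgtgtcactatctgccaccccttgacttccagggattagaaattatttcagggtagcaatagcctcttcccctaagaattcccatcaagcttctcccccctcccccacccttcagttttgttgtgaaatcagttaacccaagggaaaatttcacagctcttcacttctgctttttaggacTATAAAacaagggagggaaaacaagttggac
Il1f9: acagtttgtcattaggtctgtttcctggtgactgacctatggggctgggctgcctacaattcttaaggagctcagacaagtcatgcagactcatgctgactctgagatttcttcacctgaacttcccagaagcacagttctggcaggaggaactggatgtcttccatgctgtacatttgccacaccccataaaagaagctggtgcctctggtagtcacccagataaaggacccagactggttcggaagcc
Il1rn: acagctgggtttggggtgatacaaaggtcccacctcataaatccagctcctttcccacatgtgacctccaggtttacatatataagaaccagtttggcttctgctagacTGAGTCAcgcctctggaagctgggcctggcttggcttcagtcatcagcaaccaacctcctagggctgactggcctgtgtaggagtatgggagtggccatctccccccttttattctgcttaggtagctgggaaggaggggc
Il1a held TATAAA 32 bases and TGACTCA 12 bases before its start, and Il1b held TATAAA 31 bases before its start. The most upstream Il1rn start had TGAGTCA 141 bases before it, and its most downstream annotated start had GGGTTTTTCC 51 bases before it. None of the 3 motifs was in the Il1f9 window. Among genes not shown, Il33 held TATAAA 203 bases before its first start and 29 bases before its second. On the other strand, Il18 held TTTATA 175 bases before its start. Il1r1 held the NF-κB match GGAATGCCCC 232 bases before its second start. Il1r2 and Il1rap held none. The 4 windows were thus picked by level and show no link between motifs and levels. Windows of the same length at all 32851 annotated mouse starts held TATAAA in 12.4%, TGANTCA in 6.75% and the NF-κB letters in 4.65%. Of the 10 genes, 9 had an entry in the promoter table, Il1f6 being the one named only. These matches are a description of letters and were not tested for binding.

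Depth, estimated from the smallest steps between low values, was 18.7 to 24.5 M reads per macrophage library and 4.8 to 19.5 M per liver library, with 2 of the 3 liver Controls at 4.8 and 4.9 M. Library 2 stood apart in the macrophages: within each treatment, libraries 1 and 3 differed by 1.92 to 2.59 times the sampling variance of the reads, and library 2 differed from them by 8.78 to 91.5 times. Macrophage LPS library 2 lay at the Control level for nearly every responding gene described here. The study used 2 of its 3 LPS macrophage libraries without naming which. All 9 libraries are therefore reported first, and the values without LPS library 2 beside them, a choice made with its values known. In liver, too, the close pairs were LPS 1 and 3, LPS+MIC-1 1 and 3 and Control 2 and 3 (2.77 to 6.96 times the sampling variance, against 32.0 to 78.4 for other pairs). The macrophage libraries had Lyz2 at 8726 to 10750 FPKM. Of 7 Kupffer cell markers, 5 stayed below 0.1 FPKM there, while Fcna had 7.29 to 10.9 and Cd5l 0.799 to 5.46 FPKM. Liver libraries had Alb at 13740 to 35990 FPKM, against 1.09 to 5.46 in the macrophages. Each table was tested alone with limma on log2(FPKM + 0.5), all differences (Log2FC) below being on that scale, which understates changes of low genes. A gene was called in macrophages at a Benjamini-Hochberg adjusted p below 0.01 and in liver below 0.05, each with an absolute Log2FC above 1. Genes with a mean above 1 FPKM over the 9 libraries were tested, which took in 8 of the 10 family genes in macrophages (of 9905 genes) and 9 in liver (of 10147).

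In the macrophages, LPS with MIC-1 gave the highest values of both interleukin-36 ligands, Il1f6 and Il1f9, in all 3 of its libraries, and of Il1rn, also in all 3, and of Il1a and Il1b in libraries 1 and 3. With all 9 libraries, Il1f6 and Il1f9 were the members called higher with LPS+MIC-1 than with LPS, and Il1rn joined them against Control. No member was called lower in any macrophage comparison. LPS library 2 lay at the Control level for Il1a, Il1b, Il1rn, Il1f6, Il1f9 and Il33. With it left out, these genes were called higher with LPS than in Control. The LPS group was then only libraries 1 and 3, a close pair (2.59 times the sampling variance), so its spread is that of this pair. In those 8 libraries the same call rule again found Il1f6 and Il1f9, and no other member, higher with LPS+MIC-1 than with LPS. Rescaling those 8 libraries to the same FPKM sum added Il1rn to that call (1.17, SE 0.27, adjusted p = 0.00463). On that scale the median of all genes was 0.74, and 3587 of 9905 genes were called higher. The Il1rn value includes this upward shift of all genes.

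Il1f6 (IL-36α) was listed at 0, 0.063 and 0 FPKM in the Control libraries 1 to 3, at 1.10, 0 and 1.60 under LPS and at 18.3, 24.8 and 18.2 with LPS+MIC-1. Every LPS+MIC-1 library exceeded every other library, and the range of the LPS libraries ran down to the Control level only through library 2. The difference between LPS+MIC-1 and LPS was 4.12 (SE 0.48, limma adjusted p = 0.00168), and without LPS library 2 it was 3.50 (SE 0.18, adjusted p = 5.38e-06). Against Control it was 5.32 (SE 0.48, adjusted p = 0.000541), a value that rests on the added 0.5 because 2 Control libraries are listed at 0. With a pseudocount of 0.1 in place of 0.5, the Il1f6 difference between LPS+MIC-1 and LPS had an adjusted p of 0.0104 and was not called, and on dropping its LPS+MIC-1 library 1 or 3 the adjusted p was 0.0119 and 0.0114.

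Il1f9 (IL-36γ) had 0.449, 0.821 and 0.317 FPKM in the Controls, 5.10, 0.428 and 4.92 under LPS and 65.0, 128 and 70.2 under LPS+MIC-1. It rose by 4.79 between LPS and LPS+MIC-1 (SE 0.66, adjusted p = 0.00333), by 3.93 without LPS library 2 (SE 0.31, adjusted p = 2.44e-05), and by 6.38 over Control (SE 0.66, adjusted p = 0.000912). As for Il1f6, the LPS+MIC-1 libraries did not overlap those of any other group. The call against LPS was lost without Control library 1 or without any 1 of the LPS+MIC-1 libraries (adjusted p = 0.0104 to 0.0179), with the difference at 4.48 to 4.97. In both genes LPS+MIC-1 library 2 was the highest of its group, the reverse of Il1a and Il1b. Il1rl2, the receptor chain of these ligands, was listed at 0 in all 9 macrophage libraries.

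Il1b, the main secreted inflammatory ligand of the family, had 2.00, 5.83 and 1.84 FPKM in the Controls, 214, 4.87 and 227 under LPS and 635, 81.7 and 664 under LPS+MIC-1. Each LPS+MIC-1 library was above each Control library, but LPS library 2 lay within the Control range and LPS+MIC-1 library 2 lay below LPS libraries 1 and 3. Over 9 libraries the difference was 4.26 for LPS against Control (SE 1.47, adjusted p = 0.0777), 6.61 for LPS+MIC-1 against Control (SE 1.47, adjusted p = 0.0163) and 2.35 for LPS+MIC-1 against LPS (SE 1.47, adjusted p = 0.272), none called. Without LPS library 2, Il1b was 6.05 higher with LPS than in Control (SE 0.89, adjusted p = 0.000443), and LPS+MIC-1 differed from LPS by 0.56 (SE 0.89, adjusted p = 0.594).

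Il1a, the other agonist of Il1r1, followed Il1b closely. It had 0.115, 0.324 and 0.283 FPKM in the Controls, 84.0, 0.401 and 79.8 under LPS and 236, 25.5 and 234 under LPS+MIC-1. All LPS and LPS+MIC-1 libraries were above all Controls, LPS library 2 by a small margin. Its difference for LPS against Control was 4.64 with all libraries (SE 1.70, adjusted p = 0.0777) and 6.81 without LPS library 2 (SE 0.87, adjusted p = 2e-04). For LPS+MIC-1 against LPS it was 2.63 (SE 1.70, adjusted p = 0.288) and 0.46 (SE 0.87, adjusted p = 0.659). Leaving out library 2 of every treatment, chosen after seeing that it stands apart, called both higher with LPS+MIC-1 than with LPS, Il1a by 1.52 and Il1b by 1.56 (SE 0.11 and 0.05, adjusted p = 0.000102 and 5.99e-06).

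Il1rn, the antagonist, was the most abundant member per length in every macrophage library. Its FPKM was 45.1, 92.4 and 49.0 in the Controls, 1337, 93.9 and 1322 under LPS and 1909, 1396 and 1907 under LPS+MIC-1. The 3 LPS+MIC-1 libraries were each above all LPS libraries, by the narrowest margin for library 2, and the rise over Control was 4.86 (SE 0.93, adjusted p = 0.00922). That call was lost on leaving out any 1 library except LPS library 2 (adjusted p = 0.0103 to 0.0451). Without LPS library 2, Il1rn was 4.48 higher with LPS than in Control (SE 0.29, adjusted p = 6.94e-06) and differed by 0.37 between LPS+MIC-1 and LPS (SE 0.29, adjusted p = 0.292).

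Il33, a nuclear ligand released from damaged cells, had 0, 0.019 and 0.036 FPKM in the Controls, 7.46, 0.019 and 7.34 under LPS and 5.17, 1.17 and 5.16 under LPS+MIC-1. It was the one ligand whose LPS+MIC-1 libraries all lay below LPS libraries 1 and 3. The difference between LPS+MIC-1 and LPS was 0.24 with all libraries (SE 1.02, adjusted p = 0.882) and -1.07 without LPS library 2 (SE 0.49, adjusted p = 0.0873), so its sign rested on that library and neither value was called. Without that library, it was 3.93 higher with LPS than in Control (SE 0.49, adjusted p = 0.000178). Il18 had 1.70 to 2.39 FPKM in the Controls, 1.08 to 2.27 under LPS and 0.617 to 3.88 under LPS+MIC-1, the groups overlapped, and no difference was called (adjusted p = 0.527 to 0.988 over both sets of libraries).

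The receptor side of the system was low or missing in the macrophages. Il1r1 did not exceed 0.044 FPKM and Il1r2 was listed at 0 in all 9 libraries, so neither was tested. Il1rap, the shared accessory chain, had 4.23, 3.10 and 3.75 FPKM in the Controls, 5.61, 3.55 and 5.23 under LPS and 3.29, 2.33 and 3.13 under LPS+MIC-1. Every LPS+MIC-1 library was below every LPS library, and 36.1% of all tested genes had no overlap there in either direction. The difference was -0.62 over 9 libraries (SE 0.21, adjusted p = 0.0699). Dropping LPS library 2 made it -0.80 (SE 0.17, adjusted p = 0.00331), past the p threshold but within the fold limit. Other family genes were mostly near 0 as well: of 11 further ligands, receptors and the IL-18 binding protein, 8 stayed under 1 FPKM in every library. The IL-33 receptor Il1rl1 was among the 3 that were tested, with 2.74 to 3.76 FPKM in the Controls, 2.14 to 2.82 under LPS and 5.16 to 5.36 under LPS+MIC-1. With all 9 libraries, 0 of these 3 genes were called in any comparison, where 0% to 3.27% of all genes were in either direction. Dropping LPS library 2 made Il1rl1 higher with LPS+MIC-1 than with LPS by 1.07 (SE 0.13, adjusted p = 0.000239), and Il18rap, a chain of the IL-18 receptor, by 1.56 (SE 0.12, adjusted p = 2.12e-05). These were 2 of the 3 tested called higher (11.3% of all genes), with 0 lower (12%). Il18rap had 3.93, 3.40 and 3.43 FPKM in the Controls, 0.701, 3.59 and 0.701 under LPS and 2.99, 3.32 and 2.85 under LPS+MIC-1. Its LPS+MIC-1 libraries thus lay above LPS libraries 1 and 3 but below every Control.

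Per length, the order of mean FPKM with LPS+MIC-1 was Il1rn (1738 ± 296), Il1b (460 ± 328), Il1a (165 ± 121), Il1f9 (87.8 ± 35.1), Il1f6 (20.4 ± 3.79), Il33 (3.83 ± 2.31), Il1rap (2.92 ± 0.51) and Il18 (SD, n = 3 each). Il1rn lay clear of Il1b and Il1f9 lay clear of Il1f6 in all 3 libraries. Il1b was also above Il1a within each library, although their ranges over the 3 libraries overlapped. In library 2, Il1f9 (128 FPKM) lay above Il1b (81.7 FPKM), the reverse of their means. Neither Il1a and Il1f9 nor the last 3 genes kept 1 order in all 3 libraries.

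Counted over the family, 0 of the 8 tested members were called by limma for LPS against Control with 9 libraries, where 0% of all genes were, although at an unadjusted p below 0.05 with an absolute Log2FC above 1 there were 6 of the 8 members, all higher, and 955 genes higher and 946 lower. LPS+MIC-1 over LPS gave 2 of 8 called higher (2.06% of all genes) with 0 lower (1.81%). LPS+MIC-1 over Control gave 3 of 8 higher (3.27%) with 0 lower (2.32%). Dropping LPS library 2 gave 6 of 8 higher (16.3%) with 0 lower (17.9%) in LPS over Control. In the same 8 libraries 2 were higher (11.3%) and 0 lower (12%) in LPS+MIC-1 over LPS, and 6 higher (7.55%) with 0 lower (8.2%) in LPS+MIC-1 over Control. Il1a, Il1f6, Il1f9 and Il33 averaged below 1 FPKM in Control and were tested only because treated libraries were high, so these counts are a description and support no statement on the family. The median Log2FC of the tested members was 2.11, 2.00 and 5.09 in the 3 comparisons, against -0.03, -0.01 and -0.04 over all tested genes. The member medians include the genes that passed the filter through treated libraries, so they too are a description only. Library ranges that did not overlap were common, at 36.1% of all tested genes for LPS+MIC-1 against LPS with 9 libraries. Of the 8 members, 3 were higher and 1 lower in this way. Leaving LPS library 2 out raised that share to 80.3%. Against Control, 33.3% of genes did not overlap under LPS (2 members, higher). The share under LPS+MIC-1 was 66.4% (6 members, higher). When libraries 1 and 3 of each treatment were averaged as 1 sample, 0 of the 8 members and 0 genes were called in any macrophage comparison. Under that averaging, LPS+MIC-1 exceeded LPS by 4.51 for Il1f6 and 5.37 for Il1f9 (limma adjusted p = 0.119 and 0.122). Rescaling each library to the same FPKM sum moved the median of all genes to -0.65 (LPS against Control), 0.44 (LPS+MIC-1 against LPS) and -0.21 (LPS+MIC-1 against Control), and the split of all calls for LPS+MIC-1 against LPS went from 204 upward and 179 downward to 295 and 48. Over the 8 libraries the same rescaling moved it to -0.93, 0.74 and -0.21. On the 9 rescaled libraries Il1f6 and Il1f9 remained called higher with LPS+MIC-1 than with LPS, by 4.57 and 5.28, values that include the upward shift of all genes.

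**Figure D1:**
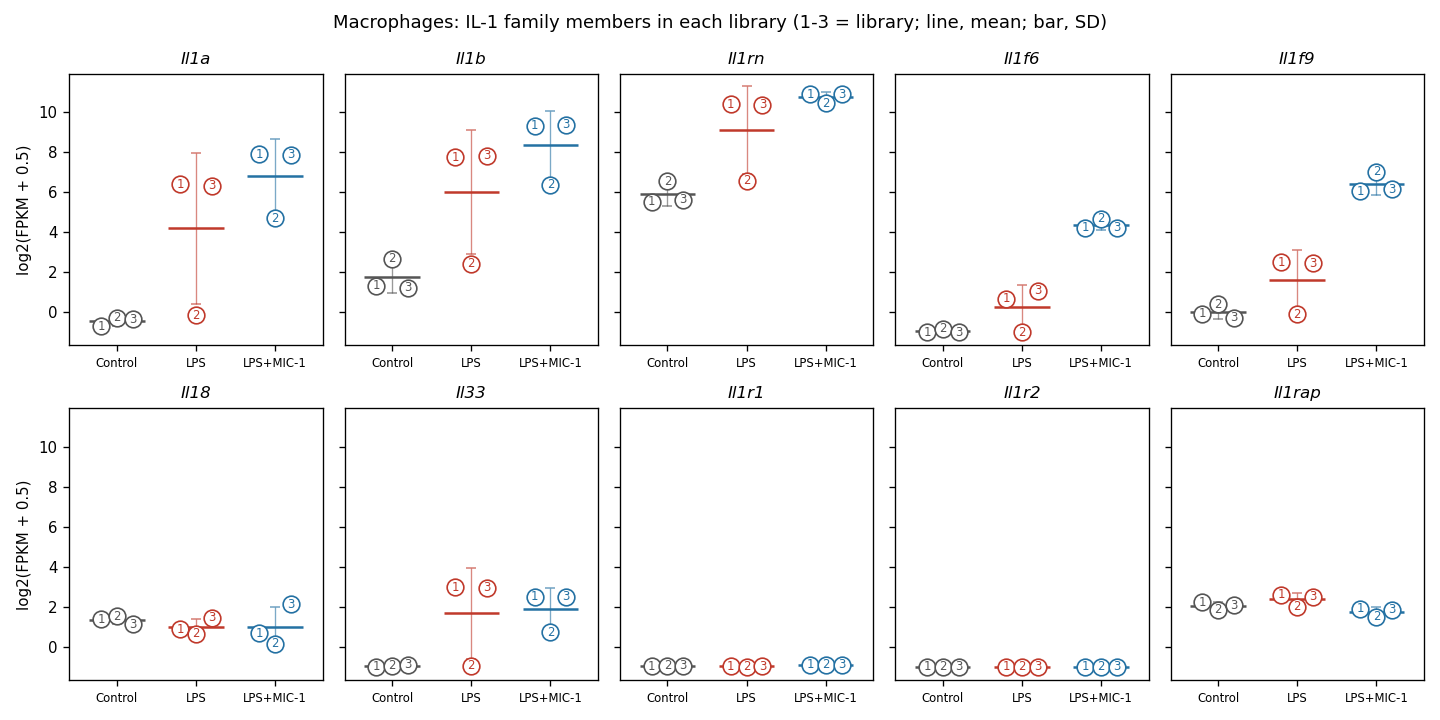
Level of the 10 IL-1 family genes in the 9 macrophage libraries, as log2(FPKM + 0.5) on the vertical axis and by treatment on the horizontal axis. Numbers in circles are libraries, lines are group means and bars are SD (n = 3). LPS library 2 sits at the Control level for Il1a, Il1b, Il1rn, Il1f6, Il1f9 and Il33, while all 3 LPS+MIC-1 libraries of Il1f6 and Il1f9 are above every other library.

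How much Il1rn RNA there was for each unit of Il1b RNA, per length, differed between libraries of the same treatment. The ratio of Il1rn to Il1b FPKM in the macrophages was 22.6, 15.9 and 26.6 in the Controls, 6.25, 19.3 and 5.83 under LPS and 3.01, 17.1 and 2.87 under LPS+MIC-1. Libraries 1 and 3 had a lower ratio with LPS than in Control, and a still lower one with LPS+MIC-1, while library 2 of each treatment stayed between 15.9 and 19.3. On the log2 scale of (FPKM + 0.5), the mean ratio was 4.16 ± 0.26 in the Controls, 3.11 ± 0.89 under LPS and 2.40 ± 1.46 under LPS+MIC-1 (SD, n = 3 each). The differences were -1.05 for LPS against Control (two-sided exact permutation p = 0.2), -0.71 for LPS+MIC-1 against LPS (exact permutation p = 0.5) and -1.76 for LPS+MIC-1 against Control (exact permutation p = 0.2). Leaving LPS library 2 out, LPS differed from Control by -1.56 (exact permutation p = 0.2) and LPS+MIC-1 from LPS by -0.19 (exact permutation p = 1.0), where the smallest possible is 0.2. With 3 against 3 libraries the smallest p possible is 0.1, so this test could not reach 0.05, and no p of a ratio is adjusted.

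**Figure D2:**
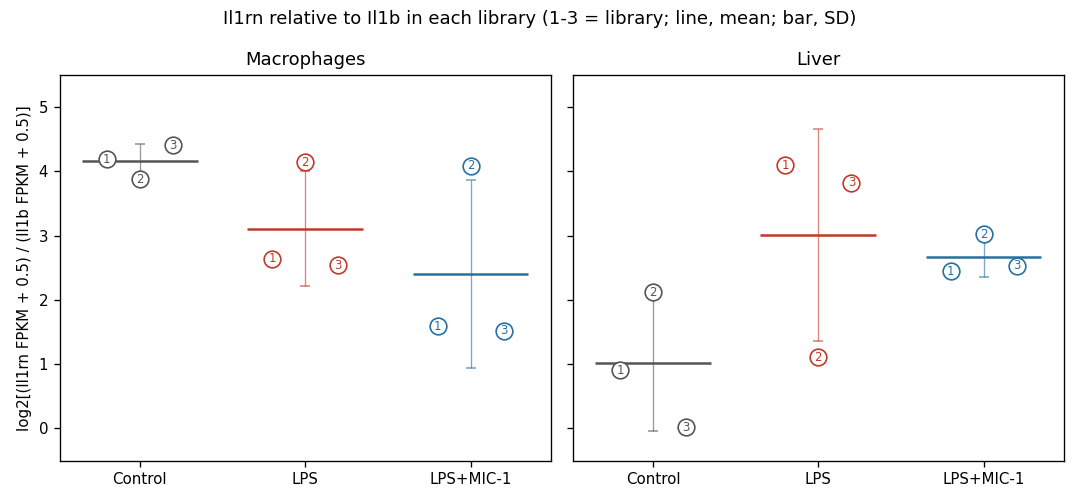
Il1rn relative to Il1b in each library, as log2 of the ratio of FPKM + 0.5, for macrophages (left) and liver (right) by treatment. Numbers are libraries, lines are means and bars are SD (n = 3). In macrophages libraries 1 and 3 step down from Control to LPS to LPS+MIC-1, and in liver LPS libraries 1 and 3 are the highest.

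The tested genes whose log2 values ran most like Il1b over the 9 macrophage libraries were Gipr (Pearson r = 0.998), Lif (r = 0.994), Il1a (r = 0.994), Fbxl5 (r = 0.993) and Mcoln2 (r = 0.993). For Il1rn they were the chemokine Ccl2, Cd300ld, Upp1, Cd53 and the iron carrier Lcn2 (r = 0.999 to 1). Ccl2 ran from 101 to 203 FPKM in the Controls, from 204 to 3590 under LPS and from 3447 to 5161 under LPS+MIC-1. Il1rn itself was 42nd in the order for Il1b, at r = 0.979, and Il1f9 and Il1f6 came far lower, at r = 0.833 and 0.823. These likenesses share treatment, table and libraries.

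Past the receptor, 20 genes of IL-1 receptor signalling were all expressed well enough to test in the macrophages. With 9 libraries, 0 of 20 were called for LPS against Control (0% of all genes), and 2 of 20, Irak3 and Nfkbiz, rose with LPS+MIC-1 over LPS (2.06% of all genes) and 0 fell (1.81%). Irak3, an inhibitory kinase-like brake on the pathway, had 4.52, 4.66 and 5.90 FPKM in the Controls, 9.11, 5.78 and 12.1 under LPS and 34.4, 22.2 and 33.7 under LPS+MIC-1 (1.72 over LPS, SE 0.28, adjusted p = 0.00576). Nfkbiz, a nuclear cofactor of NF-κB, had 10.5, 17.2 and 11.0 FPKM in the Controls, 22.4, 16.4 and 21.6 under LPS and 63.7, 41.3 and 63.3 under LPS+MIC-1 (1.44 over LPS, SE 0.25, adjusted p = 0.00742). In both, every LPS+MIC-1 library was above every LPS library.

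Leaving LPS library 2 out, 6 of the 20 signalling genes were called higher (16.3% of all genes) and 2 lower (17.9%) with LPS than in Control. On those libraries rescaled to the same FPKM sum the split was 2 higher and 8 lower, Irak2 and Tnfaip3 being the ones higher. The same rescaling called 497 higher and 4567 lower over all 9905 genes, so the split follows a shift of all genes. Irak2, a kinase of the receptor complex, went from 10.2 to 14.7 FPKM in Control to 90.9 and 97.4 in LPS libraries 1 and 3. With LPS+MIC-1 it had 38.9, 23.7 and 41.6, which was 1.47 below LPS (SE 0.25, adjusted p = 0.00117). Tollip, an inhibitor of the receptor complex, was also lower with LPS+MIC-1 (23.6 to 27.2 FPKM) than in those LPS libraries (59.4 and 60.3), its difference being -1.22 (SE 0.10, adjusted p = 3.23e-05). Tnfaip3, which encodes the NF-κB inhibitor A20, and Nfkbia, which encodes IκBα, were higher with LPS than in Control by 2.18 and 1.34 (SE 0.20 and 0.29, adjusted p = 3.1e-05 and 0.00356). Rescaling left Nfkbia at 0.35 and not called (adjusted p = 0.263). Between LPS+MIC-1 and LPS, 2 of the 20 were called higher (11.3% of all genes), again Irak3 and Nfkbiz, and 2 lower (12%), Irak2 and Tollip. On rescaled libraries that split was 10 higher and 0 lower, where 3587 of all 9905 genes were called higher and 269 lower. There Irak2 and Tollip kept their sign but not their call (-0.67 and -0.43, adjusted p = 0.0321 and 0.0108).

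**Figure D3:**
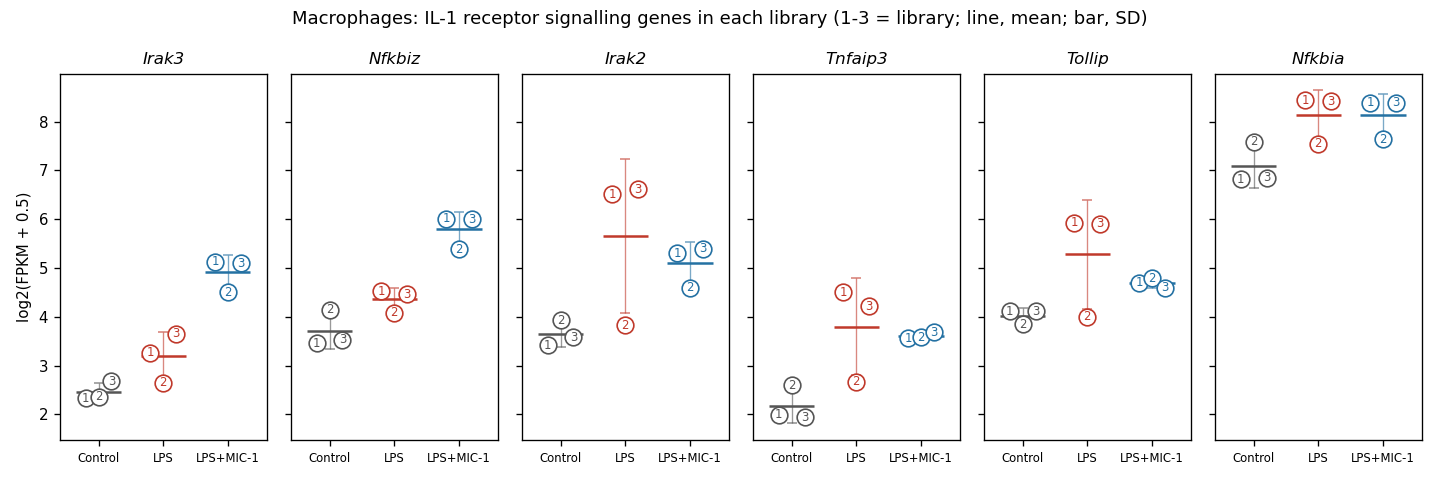
Level of 6 IL-1 receptor signalling genes in the 9 macrophage libraries, as log2(FPKM + 0.5) by treatment, with libraries as numbers, means as lines and SD as bars (n = 3). The LPS+MIC-1 libraries of Irak3 and Nfkbiz are above all LPS libraries, while for Irak2 and Tollip they lie between LPS library 2 and LPS libraries 1 and 3.

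Of 18 genes for the maturation and release of IL-1, 12 were tested in the macrophages and 0 were called with 9 libraries in any comparison, where 0% to 3.27% of all genes were called in either direction. Casp1, the protease that cuts pro-IL-1β, had 62.8 to 69.6 FPKM in the Controls, 69.5 to 89.0 under LPS and 81.4 to 82.9 under LPS+MIC-1. Pycard, the inflammasome adaptor ASC that RAW264.7 cells are known to lack, did not exceed 0.084 FPKM in any library. With LPS library 2 left out, Nlrp1b, an inflammasome sensor, was 2.63 lower with LPS than in Control (SE 0.09, adjusted p = 8.55e-07) and 2.42 higher with LPS+MIC-1 than with LPS (SE 0.09, adjusted p = 2.12e-06). Its FPKM was 7.64 to 8.04 in Control, 0.852 and 0.833 in LPS libraries 1 and 3, and 6.22 to 7.24 with LPS+MIC-1. The membrane channel gene Panx1 followed the same course, from 8.71 to 9.00 FPKM in Control to 3.40 and 2.98 in those LPS libraries and 12.1 to 19.4 with LPS+MIC-1. These were the 2 genes called lower for LPS against Control (17.9% of all genes) and the 2 called higher for LPS+MIC-1 against LPS (11.3%). On rescaled libraries the counts became 4 and 6, where 4567 and 3587 of all 9905 genes were called in those directions.

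Of 4 neutrophil marker genes tested in the macrophages, 2, S100a8 and Mmp8, were called higher with LPS+MIC-1 than with LPS (2.06% of all genes), as Il1f6 and Il1f9 were, and 0 lower (1.81%). Mmp8 and Cxcr2 averaged below 1 FPKM in Control and passed the filter through treated libraries, so these counts are a description. The summed level of the list (12 genes, 11 in the table) was 9.12 to 31.3 FPKM in the Controls, 31.0 to 254 under LPS and 779 to 917 under LPS+MIC-1. S100a8 made up most of it with LPS+MIC-1, at 1.46 to 2.40 FPKM in the Controls, 3.56 to 39.2 under LPS and 652 to 718 under LPS+MIC-1, and Mmp8 went from 0.198 to 2.13 with LPS to 21.4 to 35.8 with LPS+MIC-1. Mmp9 did not follow them, with 5.91, 26.0 and 5.92 FPKM in the Controls, 215, 25.4 and 210.1 under LPS and 159.6, 78.4 and 160.0 under LPS+MIC-1, nor did Cxcr2 (0.953 to 1.48 FPKM with LPS+MIC-1, 0.867 to 1.93 with LPS) or Csf3r (0.266 to 1.75 and 0.0962 to 0.606). Camp was at 0.957 FPKM or below. The remaining markers S100a9, Ngp, Retnlg, Mpo and Stfa2l1 stayed at 0.482 FPKM or below in every library, Stfa2l1 being listed at 0 in all 9. Whether these genes have a part in the Il1f6 and Il1f9 results was not tested.

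In liver, 16 h after LPS, the antagonist Il1rn, Il1b, the signalling receptor Il1r1, the decoy receptor Il1r2, Il33 and Il1f9 were higher than in Control and the accessory chain Il1rap was lower. Mice that had received MIC-1 before LPS kept the calls of Il1b, Il1rn, Il1r1, Il1r2 and Il1rap against Control. No family gene was called between LPS+MIC-1 and LPS. In bulk tissue, a change in the number of cells of a type and a change in the RNA per cell cannot be told apart.

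Il1rn had 2.62, 4.23 and 1.75 FPKM in the Control liver libraries, 131, 21.9 and 134 under LPS and 25.3, 69.4 and 28.6 under LPS+MIC-1. All treated liver libraries were above all Controls. The rise with LPS was 4.52 (SE 0.71, limma adjusted p = 0.00411) and with LPS+MIC-1 3.54 (SE 0.71, adjusted p = 0.00759). Between LPS+MIC-1 and LPS the difference was -0.97 (SE 0.71, adjusted p = 0.997), with LPS library 2 the lowest of its group and LPS+MIC-1 library 2 the highest of its own. Leaving out library 2 of every treatment, chosen after seeing the values, made it -2.28 (SE 0.20, adjusted p = 0.0306), a call that rests on which libraries are used.

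Il1b had 1.17, 0.587 and 1.72 FPKM in the Controls, 7.21, 9.88 and 9.03 under LPS and 4.25, 8.10 and 4.55 under LPS+MIC-1. Treated and Control libraries did not overlap, and the LPS+MIC-1 range reached into that of LPS through library 2. It rose by 2.52 with LPS (SE 0.32, adjusted p = 0.00193) and by 1.89 with LPS+MIC-1 (SE 0.32, adjusted p = 0.00462), and the 2 treated groups differed by -0.63 (SE 0.32, adjusted p = 0.997). Il1a, which ran with Il1b in the macrophages, was not called in liver, with 2.06, 2.99 and 2.64 FPKM in the Controls, 2.43, 7.38 and 2.59 under LPS and 2.82, 3.50 and 3.74 under LPS+MIC-1. Its 3 groups overlapped, with LPS library 2 above all others (0.45 for LPS against Control, SE 0.37, adjusted p = 0.358).

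Il1r1, the signalling receptor, had 9.02, 17.6 and 13.0 FPKM in the Controls, 85.4, 41.7 and 79.5 under LPS and 52.5, 49.2 and 52.8 under LPS+MIC-1. It rose by 2.32 with LPS (SE 0.32, adjusted p = 0.00262) and by 1.97 with LPS+MIC-1 (SE 0.32, adjusted p = 0.00375), with no overlap between treated and Control liver libraries. Il1r2, the decoy, was listed at 0 in all 3 Controls, at 1.59, 0.348 and 3.42 FPKM under LPS and at 1.61, 0.928 and 3.11 under LPS+MIC-1. It was called higher than Control in both comparisons (adjusted p = 0.0303 and 0.0194), and no fold is given against a group listed at 0. The shallower depth of the Controls, 4.8 to 10.8 M reads against 12.5 to 19.5 M, moves with this zero, and its part in the result was not tested. Per length the decoy stayed far below the receptor, at 0.00832 to 0.0590 of the Il1r1 FPKM in the 6 treated liver libraries. On the log2 scale of (FPKM + 0.5) that ratio was 0.57 higher with LPS+MIC-1 than with LPS (exact permutation p = 0.4, the smallest possible being 0.1).

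Il1rap, which both Il1r1 and the IL-33 and IL-36 receptors need, went the other way from Il1r1. It had 84.7, 53.2 and 51.8 FPKM in the Controls, 24.7, 25.6 and 19.0 under LPS and 26.4, 13.7 and 24.3 under LPS+MIC-1. Every treated library was below every Control. The difference from Control was -1.41 with LPS (SE 0.30, adjusted p = 0.0106) and -1.55 with LPS+MIC-1 (SE 0.30, adjusted p = 0.00684). In Control liver libraries Il1rap was 63.2 ± 18.6 FPKM and Il1r1 13.2 ± 4.27 (SD, n = 3), while with LPS they were 23.1 ± 3.60 and 68.9 ± 23.7, so that the order of the pair per length was opposite in the 2 groups and their libraries did not overlap in either.

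Il33 had 0.247, 0.295 and 0.36 FPKM in the Controls, 7.01, 0.872 and 6.40 under LPS and 0.959, 4.16 and 0.951 under LPS+MIC-1. It rose with LPS by 2.37 (SE 0.69, adjusted p = 0.0307), and with LPS+MIC-1 the difference from Control was 1.42 (SE 0.69, adjusted p = 0.136). LPS+MIC-1 differed from LPS by -0.95 (SE 0.69, adjusted p = 0.997), and by -2.31 without library 2 of every treatment (SE 0.18, adjusted p = 0.0261). As for Il1rn, library 2 was the lowest of the LPS libraries and the highest of the LPS+MIC-1 libraries. Il1f9 had 3.25, 1.18 and 1.27 FPKM in the Controls, 5.10, 4.36 and 5.80 under LPS and 2.98, 7.54 and 3.14 under LPS+MIC-1, a rise of 1.32 with LPS (SE 0.41, adjusted p = 0.0366) and an uncalled difference of 1.07 with LPS+MIC-1 (SE 0.41, adjusted p = 0.0697). The liver calls of Il33, Il1f9 and Il1r2 for LPS against Control were the ones lost when single libraries were left out, while those of Il1b, Il1rn, Il1r1 and Il1rap held in each of the 9 such fits. Against Control, the LPS+MIC-1 call of Il1r2 was lost in 4 of them. Il18 had 3.84, 0 and 3.45 FPKM in the Controls, 1.05, 1.74 and 2.96 under LPS and 1.15, 1.08 and 0.834 under LPS+MIC-1 (adjusted p = 0.675 to 0.997). Control library 2, with 4.9 M reads, decides its mean, and without that library Il18 was 1.45 lower with LPS+MIC-1 than in Control (SE 0.35, adjusted p = 0.0292). Il1f6 was at most 0.235 FPKM in any liver library and was not tested.

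**Figure D4:**
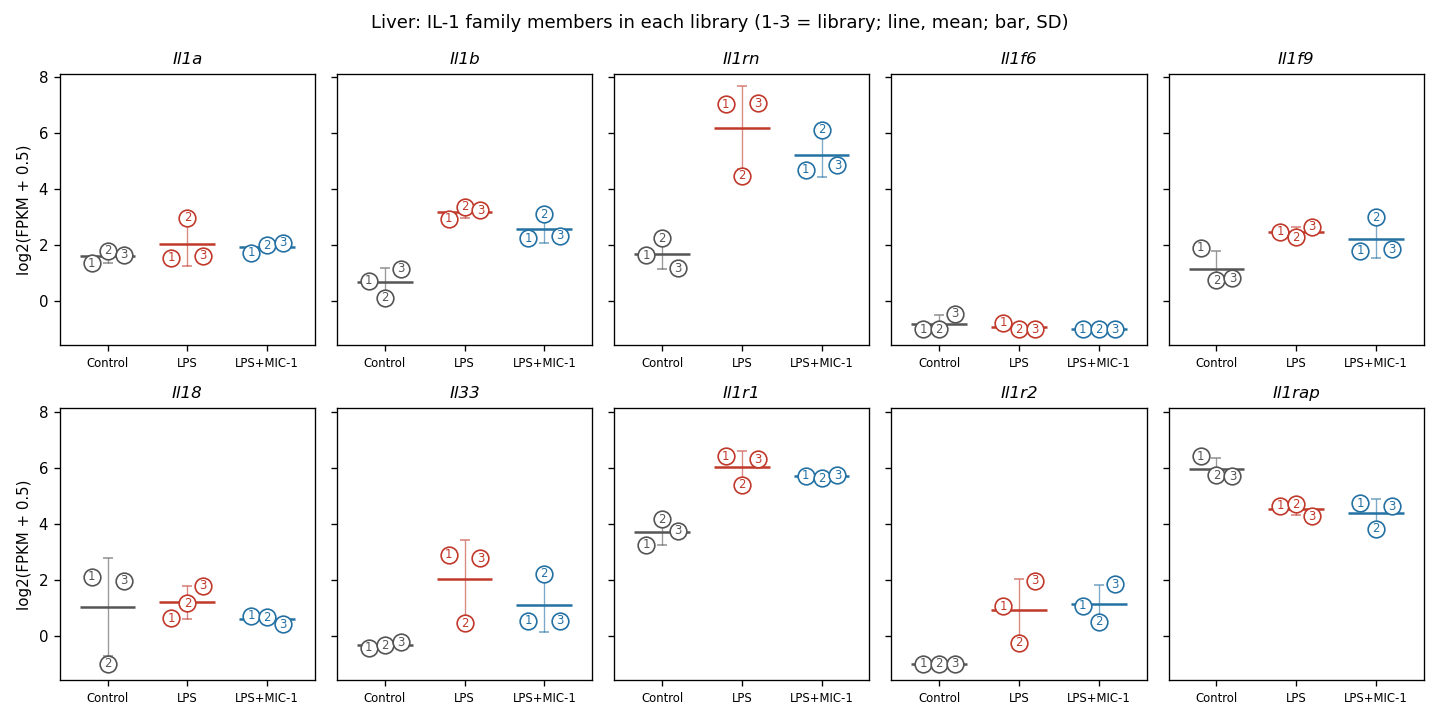
Level of the 10 IL-1 family genes in the 9 liver libraries, as log2(FPKM + 0.5) on the vertical axis and by treatment on the horizontal axis. Numbers are libraries, lines are means and bars are SD (n = 3). Il1b, Il1rn, Il1r1 and Il1r2 are above Control in all treated liver libraries and Il1rap is below it, and library 2 departs from libraries 1 and 3 in opposite directions in LPS and LPS+MIC-1 for Il1rn and Il33. Ranges apart from Control were common, at 45.0% of all tested genes under LPS and 54.6% under LPS+MIC-1.

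Over the family, 6 of the 9 tested members were called higher and 1 lower with LPS than in Control liver, where 13.4% and 11.2% of all genes were. Against Control, LPS+MIC-1 had 4 higher and 1 lower (13.8% and 11.5% of all genes). Between LPS+MIC-1 and LPS limma called 0 of 9 members and 0% of all genes, and at an unadjusted p below 0.05 with an absolute Log2FC above 1 there were 0 members, 42 genes higher and 58 lower. Il33 and Il1r2 averaged below 1 FPKM in Control and passed the filter through the treated liver libraries, so the counts are a description. The median Log2FC of the members was 1.93 for LPS against Control, -0.35 for LPS+MIC-1 against LPS and 1.42 for LPS+MIC-1 against Control, and that of all genes was 0.15, -0.01 and 0.15. The member medians include Il33 and Il1r2, so they too are a description only. Library ranges apart from Control were found in 45.0% of all tested liver genes under LPS and in 54.6% under LPS+MIC-1. Of the 9 members, 6 were higher and 1 lower in this way under LPS. Under LPS+MIC-1 there were 5 higher and 1 lower. Rescaling each library to the same FPKM sum moved the median of all genes to -0.18, -0.26 and -0.43 and turned the split of LPS calls from 1356 higher and 1137 lower to 797 and 1851. Relative to that, the Il1f9 call for LPS was the 1 member call lost. Averaging the close liver libraries left Il1b as the 1 member called for LPS against Control and 0 members for LPS+MIC-1 against Control.

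**Figure D5:**
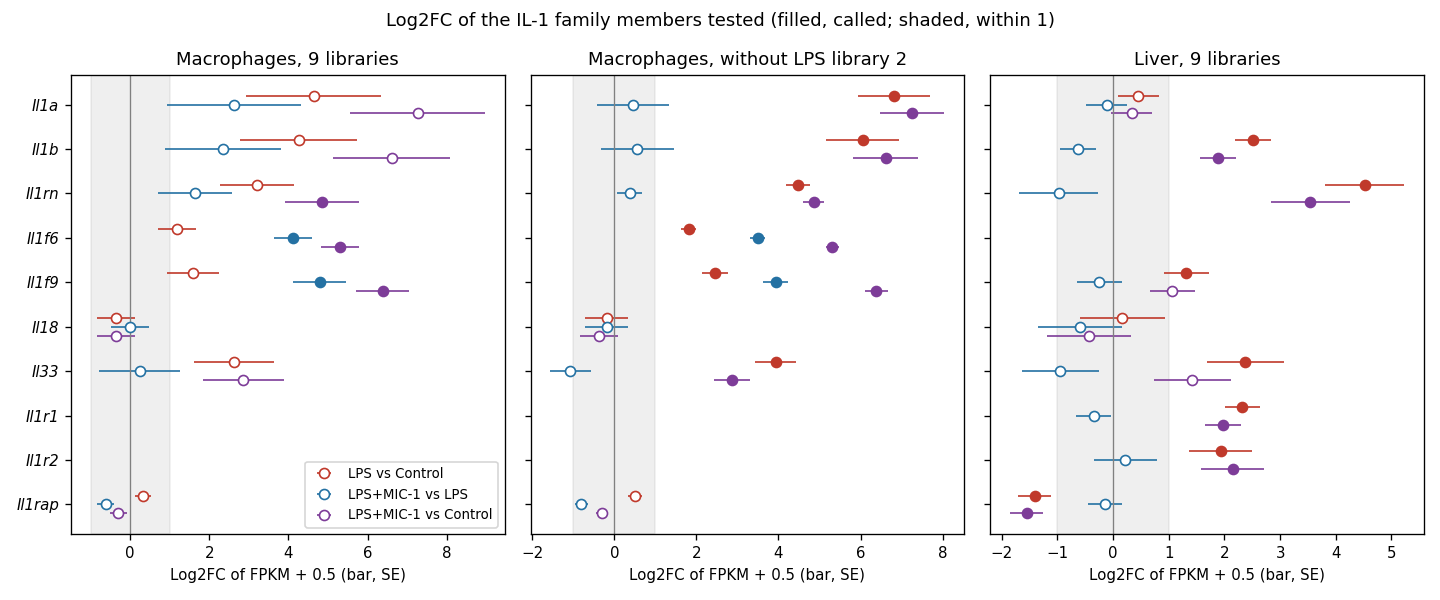
Log2FC of FPKM + 0.5 with its SE for each tested IL-1 family gene in the 3 comparisons, for macrophages with all 9 libraries (left), macrophages without LPS library 2 (middle) and liver (right). Filled points are called, open points are not, and the shaded band marks an absolute Log2FC up to 1. Il1f6 and Il1f9 are the filled points for LPS+MIC-1 against LPS in both macrophage panels, and the liver panel has none for that comparison.

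The Il1rn to Il1b ratio in liver was 2.24, 7.20 and 1.02 in the Controls, 18.2, 2.22 and 14.9 under LPS and 5.96, 8.56 and 6.29 under LPS+MIC-1. In the Controls, Il1b rested on an estimated 14, 4 and 12 reads, so those ratios are near the floor. LPS libraries 1 and 3 had the highest values and LPS library 2 lay within the Control range. The log2 ratio was 1.01 ± 1.06 in the Controls, 3.01 ± 1.65 under LPS and 2.66 ± 0.31 under LPS+MIC-1 (SD, n = 3 each). LPS exceeded Control by 2.00 (exact permutation p = 0.2), LPS+MIC-1 exceeded Control by 1.65 (exact permutation p = 0.1, the smallest possible), and LPS+MIC-1 differed from LPS by -0.35 (exact permutation p = 0.9). With a pseudocount of 0.1, LPS+MIC-1 exceeded Control by 1.49 (exact permutation p = 0.3). In LPS libraries 1 and 3 the liver ratio was thus above the Control libraries, whereas in the macrophages it was below them. The tables were normalised apart and no test was made across them.

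In liver the genes closest to Il1b over the 9 libraries were Gltp (r = 0.989), the immunoproteasome subunit Psmb9 (r = 0.976), the protease inhibitor Timp1 (r = 0.973), Cdc42ep2 (r = 0.972) and the death receptor Fas (r = 0.971). Closest to Il1rn were the basement membrane collagen Col4a1 (r = 0.996), Serpina3c, Bmper, Aldoa and the transglutaminase Tgm2 (r = 0.992). Among the members, Il1r1 ran with Il1rn at r = 0.959 and Il33 at r = 0.929, and Il1rap ran against it at r = -0.883. All of these are over the same 9 libraries, in which treatment, depth and the standing of library 2 are shared.

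Of the 20 signalling genes, 18 were tested in liver, and 3 rose (13.4% of all genes) and 0 fell (11.2%) with LPS. Myd88, the adaptor of IL-1 and Toll-like receptors, had 8.23, 12.0 and 7.59 FPKM in the Controls, 31.0, 21.2 and 33.0 under LPS and 20.2, 31.3 and 21.0 under LPS+MIC-1, and rose by 1.57 with LPS (SE 0.27, adjusted p = 0.00535) and by 1.33 with LPS+MIC-1 (SE 0.27, adjusted p = 0.00763). Tnfaip3 rose with LPS by 2.83 (SE 0.63, adjusted p = 0.0121), from 0.287 to 0.465 FPKM in Control to 10.4, 1.30 and 10.5, and had 2.06 to 2.88 with LPS+MIC-1. Nfkbiz rose with LPS by 1.26 (SE 0.31, adjusted p = 0.0167). Of the 18 maturation and release genes, 11 were tested, and 5 rose (13.4% of all genes) and 1 fell (11.2%) with LPS. Gsdmd, which encodes the pore that releases IL-1β, rose by 1.32 (SE 0.16, adjusted p = 0.00172), Pycard by 1.61 (SE 0.35, adjusted p = 0.0111) and Casp4, the sensor of LPS in the cytosol, by 1.54 (SE 0.46, adjusted p = 0.0324), whereas the DNA sensor Aim2 fell by 1.58 (SE 0.31, adjusted p = 0.00821). The largest of the 5 rises was that of the neutrophil protease gene Prtn3 (2.53, SE 0.64, adjusted p = 0.0189). Among the genes that rose, Tnfaip3 and Pycard averaged below 1 FPKM in Control and passed the filter through the treated liver libraries. The counts for the lists are therefore a description. Rescaled to the same FPKM sum, the LPS calls of Nfkbiz, Gsdmd and Casp4 were lost with their signs kept (0.92, 0.96 and 1.22), as was the LPS+MIC-1 call of Myd88 (0.70). On those rescaled values LPS had 2 signalling genes higher and 3 lower (Irak1, Chuk and Peli1), and 2 maturation and release genes higher and 2 lower, Nlrc4 joining Aim2 (-1.22, adjusted p = 0.037). Over all 10147 tested genes the same values gave 797 higher and 1851 lower. Casp1 itself was not called (1.73 to 4.83 FPKM in Control, 2.87 to 4.15 with LPS). No gene of either list was called between LPS+MIC-1 and LPS. Il18bp, which captures IL-18, was listed at 0 in all Controls and had 9.60 to 24.0 FPKM with LPS (adjusted p = 0.0121) and 20.5, 0 and 5.41 with LPS+MIC-1.

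Most neutrophil markers tested were also higher with LPS in liver. Of 9 tested, 8 were called higher (13.4% of all genes) and 1, Cxcr2, lower (11.2%) with LPS than in the Controls. S100a9, Retnlg, Camp, Ngp, Mmp8, Mmp9 and Stfa2l1 averaged below 1 FPKM in Control and passed the filter through the treated liver libraries. The counts for this list are therefore a description. The summed level of the list was 37.0 to 53.5 FPKM in Control, 355 to 457 under LPS and 194 to 467 under LPS+MIC-1. S100a8 had 2.13 to 7.98 FPKM in the Controls, 228 to 286 under LPS and 141 to 339 under LPS+MIC-1, and S100a9 had 0 to 0.449, 37.6 to 60.1 and 20.5 to 57.4. The macrophage marker list summed to 39.9 to 60.9 FPKM in the Controls, 171 to 678 under LPS and 167 to 471 under LPS+MIC-1, most of it in LPS libraries 1 and 3 from Cd14. Of its 7 tested genes, 3 were called higher (13.4% of all genes) and 1 lower (11.2%) with LPS. Mrc1 had 2.62 to 4.12 FPKM in the Controls and 0.724 to 2.31 under LPS, and Csf1r overlapped between these groups. The Kupffer cell list summed to 115 to 124 FPKM in the Controls, 101 to 120 under LPS and 98.1 to 193 under LPS+MIC-1, and its members did not move together. Clec4f and Vsig4 were lower in every treated liver library (2.86 to 6.32 and 0.647 to 1.72 FPKM) than in any Control (13.0 to 30.1 and 3.02 to 6.70). Marco was higher in every treated library (23.1 to 75.6 FPKM) than in any Control (2.18 to 6.79), and Cd5l, C6 and Timd4 overlapped between treated and Control libraries. Fcna under LPS (10.6 to 13.2 FPKM) overlapped the Controls (11.0 to 12.7), and under LPS+MIC-1 (14.8 to 15.1) was above them. The part of these cell markers in the Il1b, Il1rn, Il1r2 and Il1f9 results was not tested.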

How the data were processed

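Reads of 18 libraries were sequenced at BGI. The authors ran kallisto 0.45.0 against RefSeq transcripts (mm9), summed transcripts to genes with tximport and deposited FPKM values generated with DESeq2 1.20.0, in 1 table per tissue. The authors also deposited 6 tables of their own comparisons (fold changes, p-values), which were not used. FPKM columns were matched to groups by name, 0 were left unmatched, and libraries are numbered by column order within a group.

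Here, a gene was tested where its 9 libraries averaged above 1 FPKM, on log2(FPKM + 0.5) with limma 3.58.1 in R 4.3.3 (all 3 groups in 1 fit, eBayes with trend, Benjamini-Hochberg adjustment over all tested genes). Ratios within a library were compared by two-sided exact permutation tests (scipy 1.17.1). The fit was tested on simulated data. Read depth was estimated from the spacing of low FPKM values, of which 77.3% to 83.6% lay within 0.1 of whole reads, too few to recover counts.

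The family genes and the lists of signalling, maturation and cell marker genes were chosen with earlier results of these data known. All family genes are named, and of each list at most the 4 called genes with the largest absolute Log2FC per comparison. The 5 genes most like Il1b and Il1rn by Pearson r are named too, as are levels of markers. Casp1, Gsdmd, Pycard in macrophages, Il1rl2 and genes called only on rescaled values were named outside this rule, with their values seen. Promoter sequences are RefSeq GRCm38.p6. Alternatives tried were other pseudocounts, filters, scalings, thresholds and fits, each library left out in turn, and, chosen after seeing the data, library 2 of every treatment left out and the close liver libraries averaged.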

Additional observations from a re-analysis of the deposited data

How the results depend on the processing

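Of 1113 family Log2FC values recomputed under an alternative, 991 kept their direction and side of the threshold, 59 lost and 30 gained a call, and 33 changed sign, in 13 gene and comparison pairs of which 0 were called. Other filters, no trend, fits of only the compared groups and a left-out library of the third group cannot change a Log2FC. Values uncalled both times also count among the 991, so these counts are no measure of robustness. Depth was estimated, not given, and the smallest exact p is 0.1 for 3 against 3 libraries. No paired analysis was possible because the columns carry no replicate numbers. The cause of these changes was not tested.

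For macrophage LPS against Control, where 0 members were called, 6 were at an unadjusted p below 0.05 and 6 with library 2 of every treatment left out, and leaving out single libraries gave 0 to 6, the 6 without LPS library 2. For LPS+MIC-1 against LPS the 2 became 1 with a pseudocount of 0.1, 0 with only those groups fitted, 4 with library 2 of every treatment left out, 0 with close libraries averaged, and 0 to 2 with single libraries left out (0 without LPS+MIC-1 library 1 or 3). For LPS+MIC-1 against Control the 3 became 5 at an adjusted p below 0.05, 6 unadjusted, 6 with only those groups, 6 with library 2 left out, 0 with close libraries averaged, and 2 to 6 with single libraries left out (6 without LPS library 2). In liver, LPS against Control went from 7 to 3 at an adjusted p below 0.01, to 1 with close libraries averaged, and to 4 to 7 with single libraries left out (4 without Control library 2 or 3 or LPS library 1 or 3). LPS+MIC-1 against LPS went from 0 to 2 without library 2 of every treatment and stayed at 0 to 0 with single libraries left out. LPS+MIC-1 against Control went from 5 to 0 with close libraries averaged and to 4 to 6 with single libraries left out.

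Over all genes, calls for macrophage LPS+MIC-1 against LPS (204 higher, 179 lower) became 3 and 2 with only those groups fitted, 1092 and 1177 without library 2 of every treatment and 0 and 0 with close libraries averaged. Those for LPS+MIC-1 against Control (324 and 230) became 736 and 805, 935 and 969, and 0 and 0 in the same order. Liver LPS calls (1356 and 1137) became 623 and 479 at an adjusted p below 0.01 and 106 and 44 with close libraries averaged, and LPS+MIC-1 calls against Control (1396 and 1164) became 724 and 646, and 110 and 61. Rescaled FPKM turned the splits to 294 and 83 for macrophage LPS+MIC-1 against Control and 535 and 2584 for liver LPS+MIC-1 against Control. Without LPS library 2 the macrophage splits went from 1610 and 1776 to 497 and 4567 (LPS against Control), from 1121 and 1189 to 3587 and 269 (LPS+MIC-1 against LPS) and from 748 and 812 to 594 and 1129 (LPS+MIC-1 against Control).

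Signs that changed were all of uncalled values. In macrophages under rescaling, Il1rap for LPS against Control became -0.29 (-0.38 without LPS library 2), and Il18 for LPS+MIC-1 against LPS became 0.35 (0.40). That Il18 value was 0.021 with a pseudocount of 1, 0.011 with median-of-ratios scaling, 0.23 without library 2 of every treatment and -0.58 to 0.40 with single libraries left out. Without library 2 of every treatment Il33 for LPS+MIC-1 against LPS was -0.48, and -1.07 to 0.90 with single libraries left out. Il18 for LPS+MIC-1 against Control was 0.14 and -0.93 to 0.051 in the same order. In liver, Il18 for LPS against Control was -0.037 rescaled, -0.84 without library 2 of every treatment, -0.11 with close libraries averaged and -0.85 to 0.71 with single libraries left out, and for LPS+MIC-1 against Control -1.45 to 0.11 with single libraries left out. Il1a for LPS against Control ranged from -0.015 to 0.70 with single libraries left out, for LPS+MIC-1 against LPS from -0.36 to 0.35 (0.32 without library 2 of every treatment), and was -0.23 rescaled for LPS+MIC-1 against Control. For LPS+MIC-1 against LPS, Il1r2 was -0.0023 rescaled and -0.052 without library 2 of every treatment, and -0.37 to 0.74 with single libraries left out, and Il1rap was 0.22 without library 2 of every treatment and -0.32 to 0.14 with single libraries left out. The Il1r2 to Il1r1 log2 ratio against Control became 1.44 for LPS with a pseudocount of 0.1 and -0.47 for LPS+MIC-1 with a pseudocount of 1.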
